A study of Homo sapiens with 8 samples.

Results

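The genes described here are 40 amino acid transporters, amino acid synthesis enzymes and stress genes linked to the transcription factor ATF4. They were taken by symbol from the deposited expression table, 40 of its 26443 rows with values. They comprise 6 System L carriers and related facilitators, 4 cationic amino acid transporters, 6 glutamate, cystine and neutral (ASC) transporters, 11 sodium-coupled (SNAT), proton-coupled and other transporters, 5 stress factors with their targets, and 8 synthesis enzymes. Of these, 34 had a mean of at least 1 FPKM (fragments per kilobase of gene length and per library size) over all libraries and were tested among 11874 genes. The cells were C4-2B, a castration-resistant descendant of the LNCaP prostate cancer line, grown in RPMI with serum and treated for 7 days. The Combination group received ENZ together with EPZ6438, the ENZ group received 10 uM ENZ, the EPZ group 1 uM EPZ6438, and the DMSO group the solvent. ENZ commonly stands for the antiandrogen enzalutamide. EPZ6438 is also called tazemetostat and inhibits the histone methyltransferase EZH2. The label of the Combination libraries gives no separate doses. Each group had 2 RNA-seq libraries from total RNA of this 1 cell line, and the labels do not state whether the replicates were separate cultures. P-values therefore reflect how far these particular libraries spread, and that spread may be technical.

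System L carriers exchange large neutral amino acids such as leucine across the plasma membrane. SLC7A5 (LAT1) and SLC7A8 (LAT2) work as pairs with the heavy chain SLC3A2, whereas SLC43A1 (LAT3) and SLC43A2 (LAT4) work alone. SLC43A1 is known as an androgen-responsive transporter gene in prostate cells. When amino acids run short or proteins misfold, phosphorylation of the initiation factor eIF2 raises translation of the ATF4 message, and the ATF4 protein then induces transporter and synthesis genes through C/EBP-ATF response elements. The level of the ATF4 message therefore does not measure ATF4 protein, which was not assayed here.

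The core of that element was searched as TGATGNAA, with its other strand TTNCATCA, in RefSeq promoter windows (GRCh38.p14) that run from 250 bases before to 50 bases after a start site. Windows were present for 34 of the 40 genes, and 8 of their 65 windows held a match, 1 window in each of 8 genes. Of all 35116 windows, 1270 (3.62%) held one. Below are 4 stretches from windows of genes that the results turn on, 5′ to 3′ along the gene's strand, with the match in capitals. A gene can have several start sites in RefSeq, and each distance is to the start of its own window. The ASNS stretch (chr7:97872458-97872487, minus strand) holds the match 68 bases before that start. That of CHAC1 (chr15:40953251-40953280, plus strand) lies 209 bases before, that of SLC1A5 (chr19:46784893-46784922, minus strand) 97 bases, and that of SLC1A3 (chr5:36596357-36596386, plus strand) 220 bases. The stretches of ASNS, CHAC1 and SLC1A5 lie inside the span that GENCODE 29 gives the gene, so they are not upstream of every transcript. That of SLC1A3 lies before its GENCODE 29 span, which begins at chr5:36606355, and so does the start site of its window.
ASNS: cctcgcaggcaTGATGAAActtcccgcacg
CHAC1: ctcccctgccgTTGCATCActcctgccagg
SLC1A5: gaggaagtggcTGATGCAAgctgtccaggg
SLC1A3: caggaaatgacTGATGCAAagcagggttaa
The ASNS stretch holds the element long known as the amino acid response element of that gene. The other genes with a match were SLC1A4, SLC38A1, SLC3A2 and SLC7A1. A match describes the letters only, and binding was not measured.

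In Combination most of these transporter and synthesis genes were low, while the messages of ATF4, its partner factor DDIT3 and its target CHAC1 were high. Of the 34 tested genes, 24 fell and 5 rose against DMSO (limma, adjusted p under 0.05), where 80.8% of all tested genes were called, 47.4% lower and 33.3% higher. Their median log2 change was -0.73, against -0.15 over all tested genes. In ENZ 16 fell and 6 rose, while 56.7% of all tested genes were called, 28.8% lower and 27.9% higher, with a median of -0.16 for the members and 0.005 for all. In EPZ 13 fell and 8 rose, while 55.8% of all were called, 32.4% lower and 23.4% higher, with medians of -0.09 and -0.05. The members' shares in EPZ, 38.2% lower and 23.5% higher, lay near those of all genes. A bulk library cannot tell fewer cells of a kind from less RNA per cell. The ENZ and EPZ counts, in both directions, depended on single libraries.

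**Figure D1:**
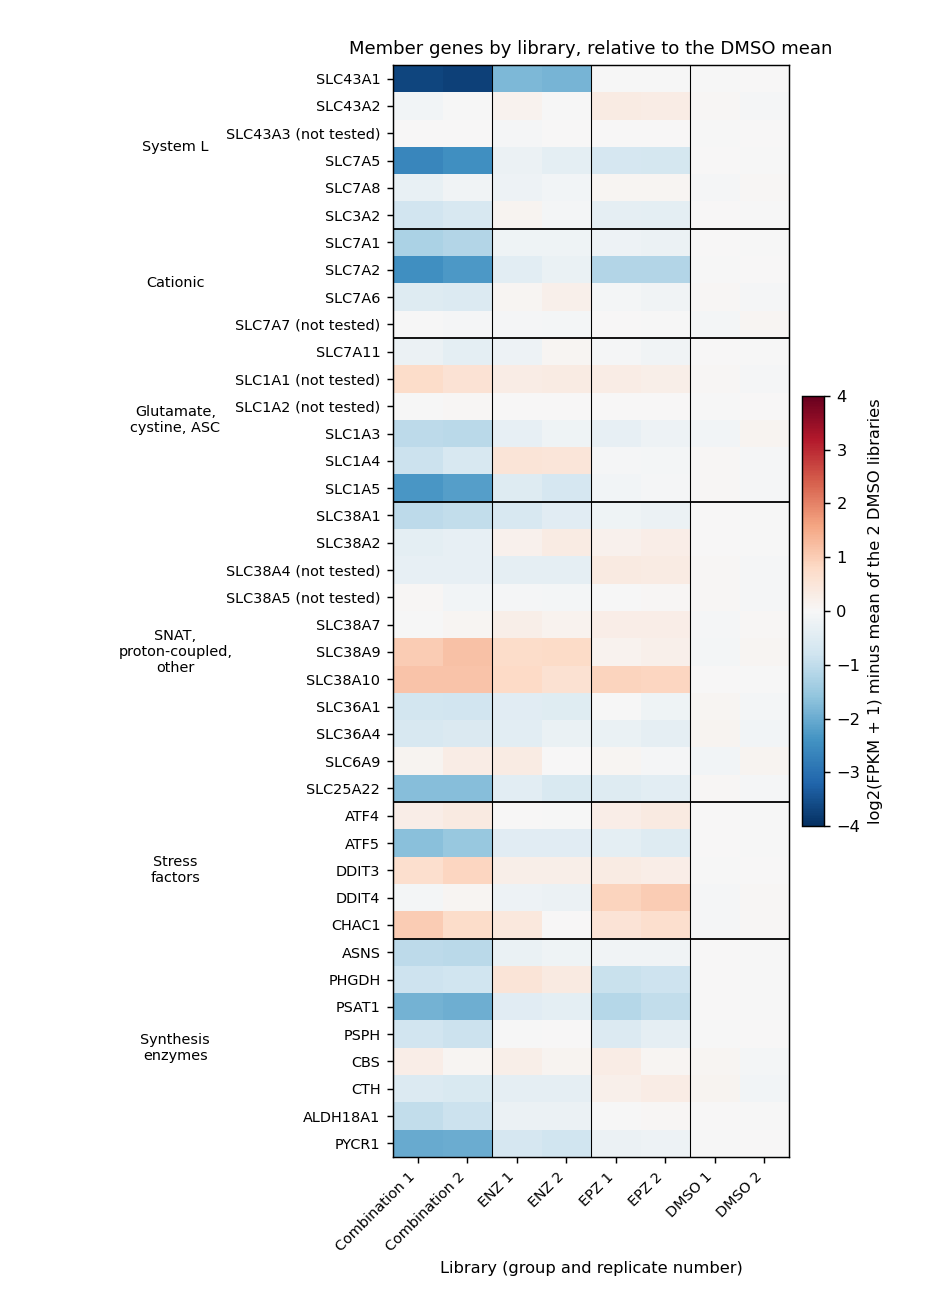
Each row is a member gene and each column 1 library, coloured by log2(FPKM + 1) minus the mean of the 2 DMSO libraries. SLC43A1, SLC7A5, SLC7A2 and SLC1A5 are darkest in both Combination libraries, SLC38A9 and SLC38A10 are red there, and the stress factors show a red ATF4, DDIT3 and CHAC1 beside a blue ATF5.

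The FPKM of Combination sat on a lower general scale than those of the other groups. Fragments assigned to genes, per unit of the FPKM denominator, came to 78.8% and 80.8% in Combination, 93.2% and 93.0% in ENZ and 93.9% and 95.1% in EPZ of the first DMSO library, and to 99.3% in the second DMSO library. With median-of-ratios scaling the median over all genes in Combination against DMSO was 0.002 and that of the members -0.56. With voom on the sum of gene fragments the medians were 0.145 for all genes and -0.52 for the members. The count of members that rose in Combination was 9 under the first and 10 under the second, in place of 5, and the count that rose in ENZ was 10 under voom, in place of 6. Of the members called in Combination against DMSO, 4 moved by over 1.5 times with median-of-ratios scaling, 9 with quantile normalization and 10 with voom. Among all called genes, the share called higher was 57.6% under voom and 41.3% as deposited in Combination, 61.9% and 49.2% in ENZ, and 52.1% and 41.9% in EPZ. Fragments recovered from the table numbered 12742053 and 11088176 in Combination, 15063019 and 17016925 for ENZ, 19240984 and 17812408 for EPZ, and 12942468 and 16903480 for DMSO. EZH2 stood at 6.47 and 6.28 FPKM in Combination, 23.4 and 26.3 FPKM in ENZ, 16.1 and 14.7 FPKM in EPZ, and 26.2 and 25.4 FPKM in DMSO. The androgen-induced genes KLK3 and FKBP5 were lower than DMSO in both groups given ENZ and higher in EPZ, by adjusted p of 0.00016 or less in each case. All 10 luminal prostate markers had a mean of at least 1 FPKM, with sums of 1027 to 1053 FPKM in Combination, 898.1 to 901.8 FPKM in ENZ, 4314 to 4363 FPKM in EPZ and 1726 to 1767 FPKM in DMSO. The 3 basal markers KRT5, KRT14 and TP63 summed to at most 0.184 FPKM in any library. Of 4 stromal markers COL1A1 alone reached a mean of 1 FPKM and COL1A2 was at 0 throughout. Their sum was 11.1 to 11.2 FPKM in Combination, 3.60 to 4.83 FPKM in ENZ, 3.01 to 3.32 FPKM in EPZ and 2.363 to 2.498 FPKM in DMSO, and the part of this in the results was not tested. Of 4 immune and blood markers, CD3E and HBB were at 0 and CD68 alone reached a mean of 1 FPKM, with sums of 11.02 to 12.09 FPKM in Combination, 6.46 to 6.92 FPKM in ENZ, 10.3 FPKM in both EPZ libraries and 7.06 to 7.38 FPKM in DMSO. Their part was not tested either.

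The System L carriers held the largest fall among the members. SLC43A1, the lone-acting leucine carrier LAT3 (chr11:57484534-57515786, minus strand, GRCh38, GENCODE 29), stood at 7.31 and 6.97 FPKM in Combination, 29.9 and 28.4 FPKM in ENZ, 104 and 104 FPKM in EPZ, and 104 and 107 FPKM in DMSO. Both Combination libraries lay below both ENZ libraries, and both ENZ libraries far below EPZ and DMSO, which overlapped. The log2 change was -3.71 (SE 0.055, limma adjusted p = 6.44e-11) in Combination and -1.82 (SE 0.055, adjusted p = 1.86e-08) in ENZ. In EPZ it was -0.02 (SE 0.055, adjusted p = 0.769), and under quantile normalization 0.153 (adjusted p = 0.0488).

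SLC7A5, the exchanger LAT1 (chr16:87830023-87869488, minus strand), stood at 13.1 and 14.8 FPKM in Combination, 72.8 and 64.7 FPKM in ENZ, 53.0 and 52.1 FPKM in EPZ, and 86.4 and 83.4 FPKM in DMSO. The 4 groups did not overlap, and DMSO was the highest. SLC7A5 fell by 2.53 on the log2 scale in Combination (SE 0.074, adjusted p = 1.44e-09) and by 0.68 in EPZ (SE 0.074, adjusted p = 5.56e-05). Its change in ENZ was -0.30 (SE 0.074, adjusted p = 0.00646), and -0.07 under quantile normalization (adjusted p = 0.382). SLC7A5 has near-identical pseudogene copies, of which SLC7A5P1 and SLC7A5P2 were listed at 0.596 to 2.64 FPKM. SLC3A2, the heavy chain, stood at 30.5 and 33.8 FPKM in Combination, 57.2 and 50.2 FPKM in ENZ, 41.2 and 40.5 FPKM in EPZ, and 54.1 and 51.8 FPKM in DMSO. The ENZ libraries lay on either side of the DMSO libraries, and those of EPZ and Combination lay below them. SLC3A2 changed by -0.70 in Combination (SE 0.074, adjusted p = 1.05e-05), -0.14 with quantile normalization (adjusted p = 0.085) and -0.40 with voom, and fell by 0.37 in EPZ (SE 0.074, adjusted p = 0.00238).

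SLC7A8, the exchanger LAT2, varied little, with 18.1 and 20.1 FPKM in Combination, 19.5 and 20.6 FPKM in ENZ, 24.0 and 23.9 FPKM in EPZ, and 21.5 and 23.5 FPKM in DMSO. Its change in Combination was -0.23 (SE 0.070, adjusted p = 0.0132), which did not pass without Combination replicate 1 (adjusted p = 0.116) or DMSO replicate 2 (adjusted p = 0.119) and was positive under quantile normalization and voom. SLC43A2, the carrier LAT4, stood at 2.70 and 2.95 FPKM in Combination, 3.36 and 2.99 FPKM in ENZ, 3.99 and 3.94 FPKM in EPZ, and 3.12 and 2.87 FPKM in DMSO. EPZ was the high group, with a change of 0.31 (SE 0.083, adjusted p = 0.00975) that did not pass without EPZ replicate 1 (adjusted p = 0.0564) or DMSO replicate 2 (adjusted p = 0.0679). Over all tested genes, 47.4% were called lower in Combination, 28.8% in ENZ and 32.4% in EPZ. Of the 5 tested System L genes, 4 were called lower in Combination, 2 in ENZ and 2 in EPZ, with medians of -0.70, -0.16 and -0.02. None was called higher in Combination, at an adjusted or unadjusted p under 0.05, whereas under voom SLC43A2 was, with 0.24 (adjusted p = 0.00741). With quantile normalization SLC43A2 was called lower there instead, with -0.25 (adjusted p = 0.019), so its direction depended on scaling. As deposited its change was -0.06 (adjusted p = 0.5).

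**Figure D2:**
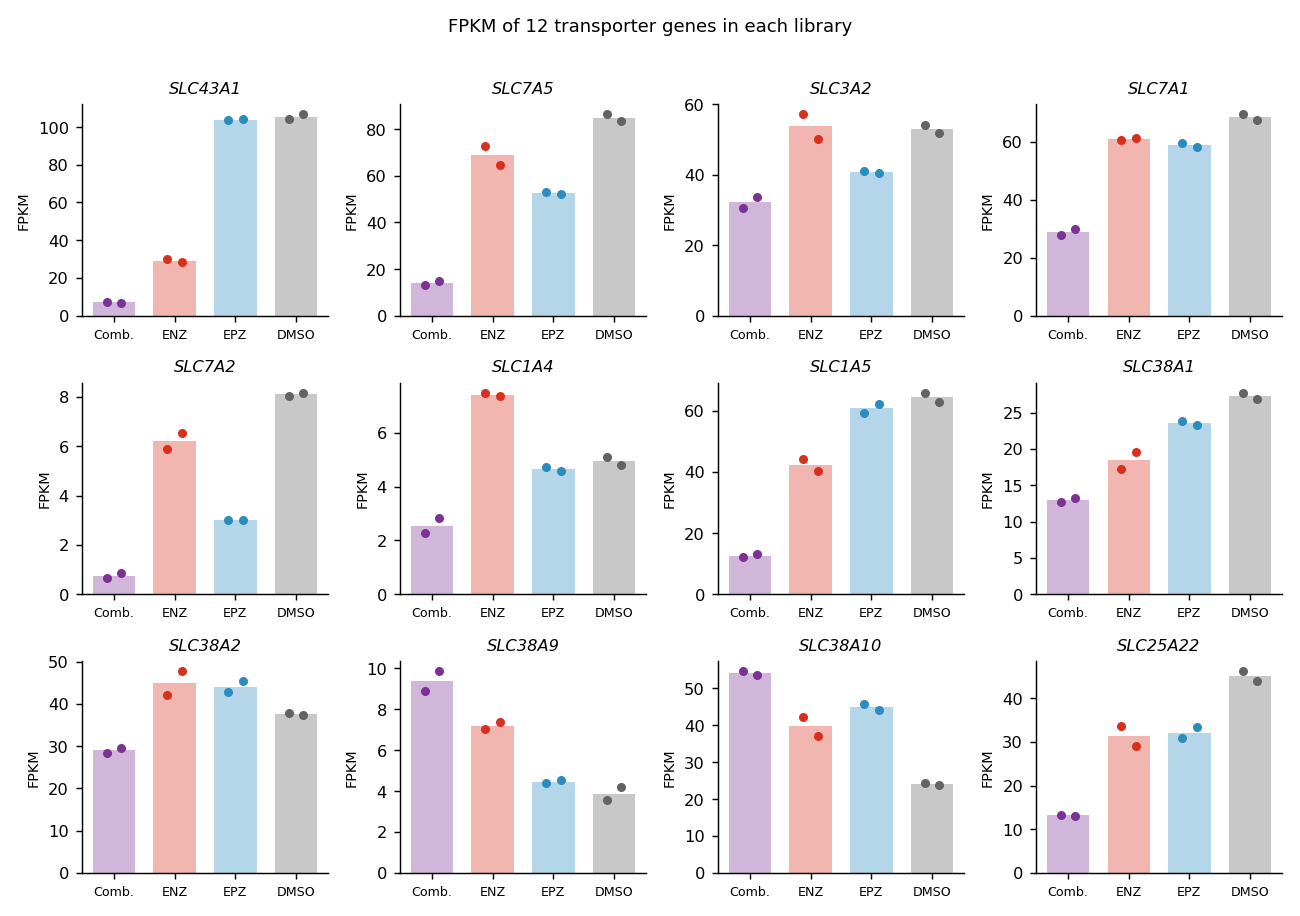
Bars give the mean FPKM of 12 transporter genes in Combination, ENZ, EPZ and DMSO, and points the 2 libraries of each group. SLC43A1 is at 7.31 and 6.97 FPKM in Combination and near 104 FPKM in both EPZ and DMSO, whereas SLC38A9 and SLC38A10 are highest in Combination.

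All 3 tested cationic transporters fell in Combination, with a median of -1.22, while 47.4% of all tested genes were called lower. SLC7A2, a carrier of arginine and lysine, stood at 0.667 and 0.848 FPKM in Combination, 5.87 and 6.54 FPKM in ENZ, 3.01 and 3.02 FPKM in EPZ, and 8.05 and 8.16 FPKM in DMSO. All groups were apart, and Combination rested on 101 and 109 fragments against 975 and 1301 in DMSO. SLC7A2 fell by 2.38 in Combination (SE 0.084, adjusted p = 4.45e-09), by 0.34 in ENZ (SE 0.084, adjusted p = 0.00674) and by 1.18 in EPZ (SE 0.084, adjusted p = 4.73e-06). These log2(FPKM + 1) changes understate the change of a gene this low. SLC7A1, the ubiquitous carrier CAT1, stood at 27.88 and 30.001 FPKM in Combination, 60.6 and 61.3 FPKM in ENZ, 59.7 and 58.3 FPKM in EPZ, and 69.5 and 67.5 FPKM in DMSO. Combination lay well under the other groups, and SLC7A1 fell by 1.22 (SE 0.056, adjusted p = 2.38e-08), with a change of -0.65 under quantile normalization (adjusted p = 3.35e-06).

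The smaller SLC7A1 changes of -0.17 in ENZ (SE 0.056, adjusted p = 0.0275) and -0.21 in EPZ (SE 0.056, adjusted p = 0.00939) depended on scaling and on single libraries. The first did not pass without ENZ replicate 1 (adjusted p = 0.0536), DMSO replicate 1 (adjusted p = 0.158) or DMSO replicate 2 (adjusted p = 0.0781), nor the second without EPZ replicate 2 (adjusted p = 0.0636) or DMSO replicate 1 (adjusted p = 0.0764). With quantile normalization the SLC7A1 change was 0.0583 in ENZ (adjusted p = 0.405) and -0.04 in EPZ (adjusted p = 0.543). With voom it was -0.07 in ENZ (adjusted p = 0.241) and -0.14 in EPZ (adjusted p = 0.0221). SLC7A6, which pairs with SLC3A2 to exchange cationic and neutral amino acids, stood at 6.58 and 6.33 FPKM in Combination, 10.3 and 11.3 FPKM in ENZ, 9.20 and 8.78 FPKM in EPZ, and 10.0 and 9.48 FPKM in DMSO. Its fall of 0.53 in Combination passed (SE 0.071, adjusted p = 6.08e-05; voom gave -0.27). Its changes of 0.13 in ENZ (adjusted p = 0.136; voom gave 0.25, adjusted p = 0.00455) and -0.11 in EPZ (adjusted p = 0.222) did not. SLC7A6 shares 44.4% of its exonic bases with SLC7A6OS on the other strand, and strand use in counting is not given, so its reads are uncertain.

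Among the glutamate, cystine and ASC transporters, all 4 tested genes were called lower in Combination (median -0.91), 1 in ENZ (median -0.15) and none in EPZ (median -0.09). The shares of all tested genes called lower were 47.4%, 28.8% and 32.4% in the same order. By limma 1 of the 4 was lower in EPZ at an unadjusted p under 0.05, and 1 was lower by adjusted p under voom. SLC1A5, the glutamine carrier ASCT2 (chr19:46774883-46788594, minus strand), stood at 12.1 and 13.1 FPKM in Combination, 44.3 and 40.4 FPKM in ENZ, 59.3 and 62.1 FPKM in EPZ, and 65.8 and 62.9 FPKM in DMSO. The EPZ and DMSO libraries nearly met, ENZ lay lower and Combination lowest. SLC1A5 fell by 2.26 in Combination (SE 0.066, adjusted p = 1.46e-09) and by 0.59 in ENZ (SE 0.066, adjusted p = 6.97e-05), and its change in EPZ was -0.08 (SE 0.066, adjusted p = 0.31). An antisense gene covers 23.4% of its exonic bases.

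SLC1A4, the neutral carrier ASCT1, moved in opposite directions, at 2.27 and 2.81 FPKM in Combination, 7.48 and 7.35 FPKM in ENZ, 4.72 and 4.56 FPKM in EPZ, and 5.09 and 4.79 FPKM in DMSO. It fell by 0.75 in Combination (SE 0.086, adjusted p = 1.95e-05) and rose by 0.50 in ENZ (SE 0.086, adjusted p = 0.000868). SLC1A3, the glutamate carrier EAAT1, was low, at 0.309 and 0.276 FPKM in Combination, 1.18 and 1.39 FPKM in ENZ, 1.19 and 1.36 FPKM in EPZ, and 1.53 and 1.92 FPKM in DMSO. Combination held 29 and 22 fragments of it, against 115 and 189 in DMSO, and SLC1A3 fell by 1.07 (SE 0.11, adjusted p = 7.43e-06). Under voom, which adds no pseudocount of 1 FPKM, its change was -2.22 (adjusted p = 1.62e-09).

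SLC7A11, the cystine carrier xCT and a textbook ATF4 target, stood at 2.32 and 2.00 FPKM in Combination, 2.40 and 3.14 FPKM in ENZ, 2.74 and 2.52 FPKM in EPZ, and 2.94 and 2.86 FPKM in DMSO. Only Combination lay apart from every other library, by a small margin. Its change was -0.30 in Combination (SE 0.11, adjusted p = 0.023), -0.05 in ENZ (adjusted p = 0.682) and -0.10 in EPZ (adjusted p = 0.43). Quantile normalization gave a larger fall in Combination, with -0.54 (adjusted p = 0.0013). The Combination call did not pass without Combination replicate 2 (adjusted p = 0.134), DMSO replicate 1 (adjusted p = 0.084) or DMSO replicate 2 (adjusted p = 0.0584), nor under median-of-ratios scaling (adjusted p = 0.154) or voom (adjusted p = 0.417).

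The sodium-coupled, proton-coupled and other transporters went both ways, and 2 of them rose in Combination while 5 of the 9 tested fell (median -0.36). These are 55.6% lower and 22.2% higher, near the 47.4% and 33.3% of all tested genes. SLC38A10, a carrier of the SNAT family, stood at 54.6 and 53.7 FPKM in Combination, 42.4 and 37.1 FPKM in ENZ, 45.7 and 44.1 FPKM in EPZ, and 24.2 and 23.8 FPKM in DMSO. Every treated library lay above both DMSO libraries, and SLC38A10 rose by 1.14 in Combination (SE 0.067, adjusted p = 1.4e-07), 0.70 in ENZ (SE 0.067, adjusted p = 2.88e-05) and 0.88 in EPZ (SE 0.067, adjusted p = 6.99e-06). SLC38A9, the lysosomal carrier that senses arginine for mTORC1, stood at 8.89 and 9.85 FPKM in Combination, 7.02 and 7.35 FPKM in ENZ, 4.38 and 4.54 FPKM in EPZ, and 3.57 and 4.19 FPKM in DMSO. It rose by 1.09 in Combination (SE 0.084, adjusted p = 9.67e-07) and 0.75 in ENZ (SE 0.084, adjusted p = 7.03e-05), and its change in EPZ was 0.17 (SE 0.084, adjusted p = 0.119; voom gave 0.27, adjusted p = 0.0477).

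SLC25A22, a mitochondrial glutamate carrier, stood at 13.3 and 13.1 FPKM in Combination, 33.6 and 29.01 FPKM in ENZ, 30.9 and 33.4 FPKM in EPZ, and 46.2 and 43.9 FPKM in DMSO. ENZ and EPZ overlapped between the other groups, and SLC25A22 fell by 1.70 in Combination (SE 0.076, adjusted p = 2.07e-08), 0.51 in ENZ (SE 0.076, adjusted p = 0.000374) and 0.47 in EPZ (SE 0.076, adjusted p = 0.000618). SLC38A1, the glutamine carrier SNAT1, stood at 12.7 and 13.3 FPKM in Combination, 17.3 and 19.6 FPKM in ENZ, 23.9 and 23.3 FPKM in EPZ, and 27.7 and 26.8 FPKM in DMSO. It fell by 1.02 in Combination (SE 0.069, adjusted p = 3.79e-07) and 0.54 in ENZ (SE 0.069, adjusted p = 0.000146). Its change of -0.20 in EPZ (SE 0.069, adjusted p = 0.0306) did not pass when either EPZ replicate or either DMSO replicate was left out. Nor did it pass under another scaling. It was -0.15 with median-of-ratios scaling (adjusted p = 0.0841), -0.06 with quantile normalization (adjusted p = 0.499) and -0.13 with voom (adjusted p = 0.0556).

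SLC38A2, the SNAT2 carrier that amino acid shortage induces, stood at 28.3 and 29.6 FPKM in Combination, 42.1 and 47.7 FPKM in ENZ, 42.8 and 45.3 FPKM in EPZ, and 37.8 and 37.3 FPKM in DMSO. Both single agents lay above DMSO and Combination below it. The changes were -0.36 in Combination (SE 0.068, adjusted p = 0.000691), 0.25 in ENZ (SE 0.068, adjusted p = 0.0111) and 0.23 in EPZ (SE 0.068, adjusted p = 0.0184). That in Combination was 0.15 under quantile normalization (adjusted p = 0.0776) and -0.05 under voom (adjusted p = 0.466). Without DMSO replicate 2 the ENZ change had adjusted p = 0.0588, and the EPZ change did not pass without EPZ replicate 2 (adjusted p = 0.12), DMSO replicate 1 (adjusted p = 0.0682) or DMSO replicate 2 (adjusted p = 0.085).

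SLC38A7, a lysosomal glutamine carrier, stood at 6.68 and 7.21 FPKM in Combination, 8.18 and 7.56 FPKM in ENZ, 8.47 and 8.29 FPKM in EPZ, and 6.51 and 7.11 FPKM in DMSO. Combination and DMSO overlapped, and its change in EPZ was 0.27 (SE 0.073, adjusted p = 0.0122), with adjusted p = 0.0726 without EPZ replicate 1 and 0.0982 without DMSO replicate 1. SLC36A1, a lysosomal proton-coupled carrier of small amino acids, averaged 4.99 ± 0.0809 FPKM in Combination, 6.28 ± 0.00857 FPKM in ENZ, 8.47 ± 0.772 FPKM in EPZ and 9.09 ± 0.778 FPKM in DMSO (SD, n = 2 each), and fell in Combination and ENZ. SLC36A4, which averaged 1.02 FPKM over all libraries and so lay just inside the expression filter, fell in Combination, at 0.602 and 0.671 FPKM, against 1.68 and 1.29 FPKM in DMSO. Its calls in ENZ and EPZ did not pass without DMSO replicate 1 (adjusted p = 0.22 and 0.27), without ENZ replicate 1 for ENZ (adjusted p = 0.136), or without EPZ replicate 1 (adjusted p = 0.0857) or EPZ replicate 2 (adjusted p = 0.173) for EPZ. SLC6A9, the glycine carrier GLYT1, lay between 1.83 and 2.85 FPKM and passed in no comparison as deposited. Its change in Combination against DMSO was 0.20 (adjusted p = 0.174), 0.33 with median-of-ratios scaling (adjusted p = 0.0391) and 0.59 with voom (adjusted p = 0.00169). In all, 3 of the 9 were called higher and 4 lower in ENZ (median 0.18), and 3 higher and 3 lower in EPZ (median 0.02). That is 44.4% lower and 33.3% higher in ENZ, against 28.8% and 27.9% of all tested genes. In EPZ it is 33.3% lower and 33.3% higher, against 32.4% and 23.4%.

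The messages of ATF4, DDIT3 and CHAC1 rose in Combination, that of ATF5 fell, and the call of DDIT4 depended on scaling. ATF4 itself (chr22:39519695-39522685, plus strand) stood at 79.1 and 84.7 FPKM in Combination, 66.4 and 64.7 FPKM in ENZ, 78.4 and 83.1 FPKM in EPZ, and 65.6 and 65.0 FPKM in DMSO. The libraries given EPZ6438 were the high ones, with or without ENZ. ATF4 rose by 0.32 in Combination (SE 0.057, adjusted p = 0.000426) and by 0.30 in EPZ (SE 0.057, adjusted p = 0.00153), and its change in ENZ was 0.01 (SE 0.057, adjusted p = 0.943). The size depended on scaling: in Combination it was 0.50 with median-of-ratios scaling, 0.65 with voom and 1.00 with quantile normalization, which also gave 0.48 in EPZ and 0.24 in ENZ (adjusted p = 0.00285). DDIT3, which encodes the stress factor CHOP, stood at 12.2 and 14.1 FPKM in Combination, 8.63 and 8.84 FPKM in ENZ, 9.49 and 9.01 FPKM in EPZ, and 7.15 and 7.40 FPKM in DMSO. It rose by 0.77 in Combination (SE 0.076, adjusted p = 5.91e-06; voom gave 1.16). Its changes were 0.23 in ENZ (SE 0.076, adjusted p = 0.0242) and 0.31 in EPZ (SE 0.076, adjusted p = 0.00679). The ENZ call was lost without ENZ replicate 2 (adjusted p = 0.0695), DMSO replicate 1 (adjusted p = 0.113) or DMSO replicate 2 (adjusted p = 0.0629), and the EPZ call without EPZ replicate 1 (adjusted p = 0.0561). DDIT3 shares 27.2% of its exonic bases with MARS on the other strand.

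CHAC1, a glutathione-degrading enzyme gene that ATF4 induces, stood at 2.69 and 2.04 FPKM in Combination, 1.43 and 0.853 FPKM in ENZ, 1.63 and 1.87 FPKM in EPZ, and 0.748 and 0.884 FPKM in DMSO. It rested on 81 and 52 fragments in Combination and 18 and 28 in DMSO. CHAC1 rose by 0.88 in Combination (SE 0.14, adjusted p = 0.00026) and by 0.60 in EPZ (SE 0.14, adjusted p = 0.00629), and its change in ENZ was 0.23 (SE 0.14, adjusted p = 0.208), which passed without ENZ replicate 2 (adjusted p = 0.036). In Combination quantile normalization gave 0.55 (adjusted p = 0.0083) and voom 1.83 (adjusted p = 1.2e-06), and in EPZ voom gave 1.14. DDIT4, the mTORC1 inhibitor REDD1, stood at 32.4 and 36.1 FPKM in Combination, 29.6 and 28.6 FPKM in ENZ, 64.3 and 69.0 FPKM in EPZ, and 32.9 and 35.1 FPKM in DMSO. EPZ lay above and ENZ below all Combination and DMSO libraries. DDIT4 rose by 0.95 in EPZ (SE 0.070, adjusted p = 5.43e-06). Its change in Combination was 0.01 (SE 0.070, adjusted p = 0.898) as deposited, but 0.18 with median-of-ratios scaling (adjusted p = 0.023), 0.33 with voom (adjusted p = 0.000212) and 0.54 with quantile normalization (adjusted p = 2.48e-05). Its change of -0.21 in ENZ (SE 0.070, adjusted p = 0.0243) did not pass with quantile normalization (adjusted p = 0.349) or voom (adjusted p = 0.144), nor without ENZ replicate 2 (adjusted p = 0.0786) or DMSO replicate 2 (adjusted p = 0.157). The antisense gene DDIT4-AS1 covers 41.2% of its exonic bases.

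ATF5, a related factor that ATF4 and CHOP are known to induce, went the other way, at 8.94 and 10.2 FPKM in Combination, 22.3 and 22.2 FPKM in ENZ, 23.1 and 21.2 FPKM in EPZ, and 31.2 and 30.4 FPKM in DMSO. The single agents overlapped, and ATF5 fell by 1.59 in Combination (SE 0.072, adjusted p = 2.35e-08), 0.45 in ENZ (SE 0.072, adjusted p = 0.00061) and 0.46 in EPZ (SE 0.072, adjusted p = 0.000569). NUP62 on the other strand covers 21.2% of its exonic bases. Of the 5 stress genes, 3 were called higher and 1 lower in Combination (median 0.32), 1 higher and 2 lower in ENZ (median 0.005), and 4 higher and 1 lower in EPZ (median 0.31). Over all tested genes, 33.3% were called higher and 47.4% lower in Combination, 27.9% and 28.8% in ENZ, and 23.4% and 32.4% in EPZ.

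**Figure D3:**
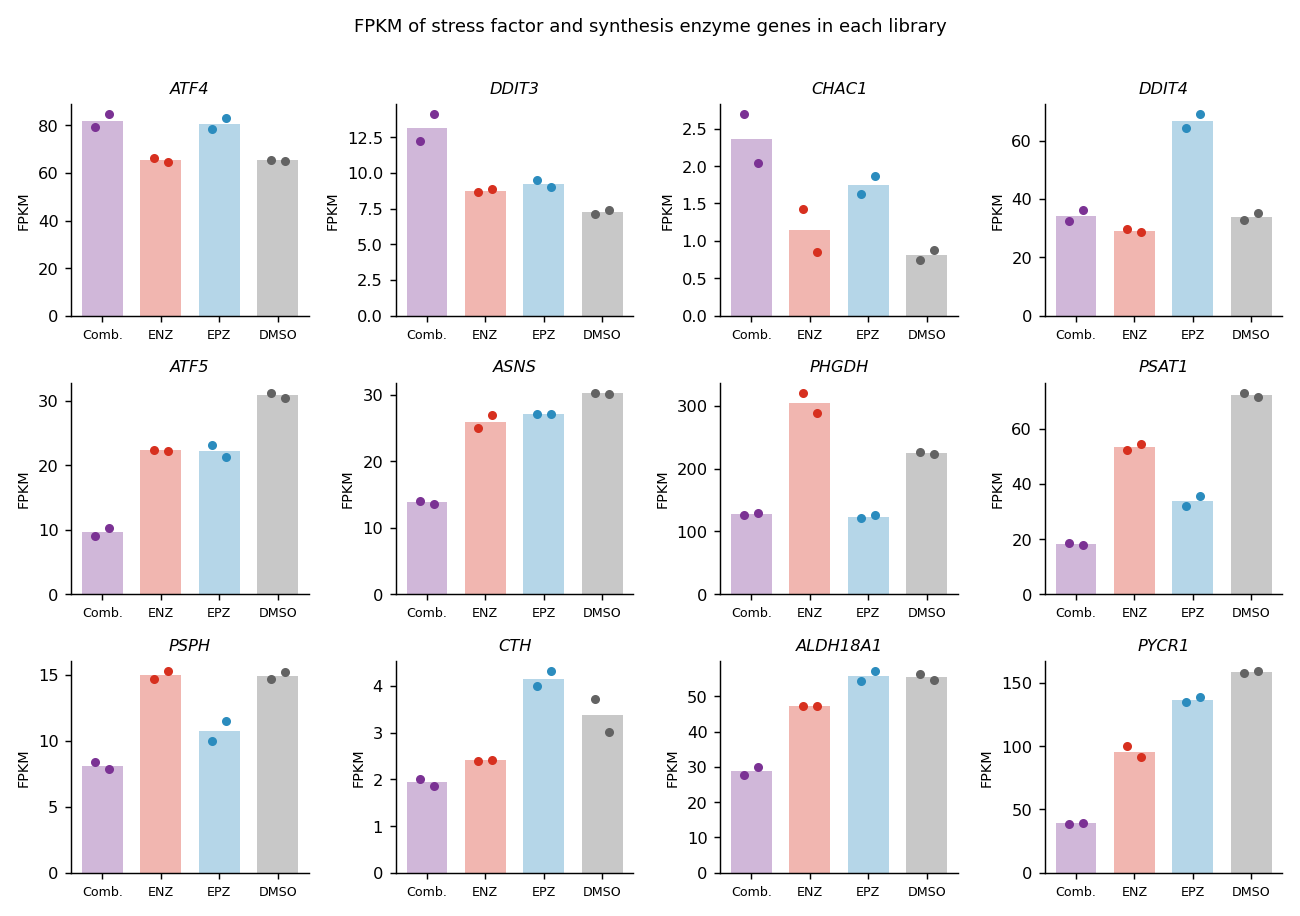
Bars give the mean FPKM of the stress factors and synthesis enzymes in Combination, ENZ, EPZ and DMSO, and points the 2 libraries of each group. ATF4, DDIT3 and CHAC1 are above DMSO in Combination, DDIT4 is highest in EPZ at 64.3 and 69.0 FPKM, and PYCR1, PSAT1 and ASNS are lowest in Combination.

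Of the 8 amino acid synthesis enzymes, 7 fell and none rose in Combination (median -0.87), where none was higher at an unadjusted p under 0.05 in limma and 1 was higher by adjusted p under voom. PYCR1, which makes proline in mitochondria (chr17:81932384-81942412, minus strand), stood at 38.4 and 39.7 FPKM in Combination, 99.97 and 91.4 FPKM in ENZ, 135 and 138 FPKM in EPZ, and 158 and 159 FPKM in DMSO. No 2 groups overlapped, and PYCR1 fell by 1.99 in Combination (SE 0.057, adjusted p = 1.24e-09) and 0.72 in ENZ (SE 0.057, adjusted p = 8.55e-06). Its change of -0.21 in EPZ (SE 0.057, adjusted p = 0.0101) did not pass without EPZ replicate 1 (adjusted p = 0.0694), DMSO replicate 1 (adjusted p = 0.0522) or DMSO replicate 2 (adjusted p = 0.0597). ALDH18A1, the enzyme before PYCR1 in proline synthesis, averaged 28.9 ± 1.63 FPKM in Combination, 47.3 ± 0.0229 FPKM in ENZ, 55.6 ± 1.96 FPKM in EPZ and 55.4 ± 1.17 FPKM in DMSO, and fell in Combination, by 0.92 as deposited and with a change of -0.38 under quantile normalization. Its call in ENZ did not pass without DMSO replicate 1 (adjusted p = 0.0711), with quantile normalization (adjusted p = 0.708) or with voom (adjusted p = 0.062).

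The serine pathway enzymes differed between the agents. PHGDH, which commits a glycolytic intermediate to serine, stood at 126 and 129 FPKM in Combination, 321 and 288 FPKM in ENZ, 121 and 125 FPKM in EPZ, and 226 and 224 FPKM in DMSO. As deposited, Combination and EPZ lay below DMSO, and ENZ above it. PHGDH fell by 0.81 in Combination (SE 0.059, adjusted p = 6.03e-07) and 0.86 in EPZ (SE 0.059, adjusted p = 3.81e-06), and rose by 0.43 in ENZ (SE 0.059, adjusted p = 0.00022). The change in Combination was -0.50 with voom (adjusted p = 2.51e-09) and -0.18 with quantile normalization (adjusted p = 0.00558). PSAT1, the next enzyme, stood at 18.6 and 17.9 FPKM in Combination, 52.5 and 54.5 FPKM in ENZ, 31.9 and 35.7 FPKM in EPZ, and 73.1 and 71.5 FPKM in DMSO. All groups were apart, and PSAT1 fell by 1.93 in Combination (SE 0.064, adjusted p = 3.17e-09), 0.43 in ENZ (SE 0.064, adjusted p = 0.000419) and 1.08 in EPZ (SE 0.064, adjusted p = 1.75e-06). PSPH, the last enzyme, stood at 8.37 and 7.85 FPKM in Combination, 14.7 and 15.3 FPKM in ENZ, 10.0 and 11.5 FPKM in EPZ, and 14.7 and 15.2 FPKM in DMSO. ENZ and DMSO overlapped, and PSPH fell by 0.81 in Combination (SE 0.074, adjusted p = 3.82e-06) and 0.44 in EPZ (SE 0.074, adjusted p = 0.000803).

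ASNS, asparagine synthetase, whose response element is printed above, stood at 14.0 and 13.6 FPKM in Combination, 24.9 and 26.9 FPKM in ENZ, 27.1 and 27.0 FPKM in EPZ, and 30.3 and 30.1 FPKM in DMSO. Combination lay well below the rest, and ASNS fell by 1.07 (SE 0.058, adjusted p = 7.78e-08). Its changes of -0.21 in ENZ (SE 0.058, adjusted p = 0.0113) and -0.15 in EPZ (SE 0.058, adjusted p = 0.0489) were small. The ENZ one did not pass without DMSO replicate 1 (adjusted p = 0.0663) or DMSO replicate 2 (adjusted p = 0.0567), and the EPZ one did not pass when any 1 of the Combination, EPZ or DMSO libraries was left out (adjusted p from 0.0679 to 0.176). With quantile normalization the ASNS change was -0.09 in ENZ (adjusted p = 0.271) and 0.001 in EPZ (adjusted p = 0.991). With voom it was -0.12 in ENZ (adjusted p = 0.129) and -0.08 in EPZ (adjusted p = 0.316). Median-of-ratios scaling gave -0.10 in EPZ (adjusted p = 0.176). A processed transcript on the same strand covers 44.6% of the exonic bases of ASNS. The cysteine-forming enzyme CTH averaged 1.93 ± 0.11 FPKM in Combination, 2.41 ± 0.0156 FPKM in ENZ, 4.16 ± 0.219 FPKM in EPZ and 3.37 ± 0.502 FPKM in DMSO. CTH fell in Combination, and its call in ENZ had adjusted p = 0.10 without DMSO replicate 1. CBS, which forms cystathionine, lay between 1.14 and 1.73 FPKM and passed in no comparison as deposited. Its change in Combination against DMSO was 0.28 with median-of-ratios scaling (adjusted p = 0.0469) and 0.64 with voom (adjusted p = 0.000777). CBS has a near-identical copy in GRCh38, and how reads that match both were counted is not stated. Of the 8 enzymes, 5 were called lower and 1 higher in ENZ (median -0.22), and 5 lower and none higher in EPZ (median -0.18), where 1 was higher at an unadjusted p under 0.05 and 2 by adjusted p under voom. Lower calls made up 47.4% of all tested genes in Combination, 28.8% in ENZ and 32.4% in EPZ.

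Set against each single agent, Combination was mostly lower. Against ENZ, 20 of the 34 fell and 6 rose, where 70.8% of all tested genes were called, 45.5% lower and 25.3% higher, and the medians were -0.64 for the members and -0.15 for all. Against EPZ, 25 fell and 3 rose, where 72.8% were called, 43.7% lower and 29.2% higher, and the medians were -0.62 and -0.11. The count higher than EPZ was 6 with median-of-ratios scaling, 5 with quantile normalization and 7 with voom. Among all called genes the share called higher depended on scaling. Against ENZ it was 35.7% as deposited, 51.2% with median-of-ratios scaling, 51.0% with quantile normalization and 54.4% with voom, and against EPZ 40.0% as deposited and 58.4% with voom. SLC43A1 changed by -1.89 against ENZ (SE 0.055, adjusted p = 3.38e-09) and by -3.69 against EPZ (SE 0.055, adjusted p = 2.06e-10). SLC7A5 changed by -2.22 (SE 0.074, adjusted p = 7.6e-09) and -1.84 (SE 0.074, adjusted p = 2.47e-08) in the same order, and SLC1A5 by -1.67 (SE 0.066, adjusted p = 2.38e-08) and -2.18 (SE 0.066, adjusted p = 5.83e-09). SLC38A9, SLC38A10 and DDIT3 were higher in Combination than in either agent alone. ATF4 was higher against ENZ by 0.32 (SE 0.057, adjusted p = 0.000653) and changed by 0.02 against EPZ (SE 0.057, adjusted p = 0.758), and PHGDH changed by -1.25 against ENZ (SE 0.059, adjusted p = 7.21e-08) and by 0.05 against EPZ (SE 0.059, adjusted p = 0.469). The near-zero differences from EPZ depended on scaling. That of ATF4 was 0.14 with median-of-ratios scaling (adjusted p = 0.027), 0.27 with voom (adjusted p = 0.000206) and 0.53 with quantile normalization (adjusted p = 7.56e-06), and that of PHGDH was 0.17 (adjusted p = 0.0181), 0.29 (adjusted p = 4.75e-05) and 0.56 (adjusted p = 3.83e-06) in the same order. DDIT4, at 64.3 and 69.0 FPKM in EPZ, was lower in Combination than in EPZ by a log2 change of -0.94 (SE 0.070, adjusted p = 1.24e-06), or -0.52 with quantile normalization.

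The interaction asks whether Combination departs from the sum of the single-agent changes on the log2 scale. It measures how the agents act together only if Combination used the single-agent doses, which its label does not give. For 23 of the 34 genes it was negative past the threshold and for none positive, where 39.6% of all tested genes passed, 29.6% negative and 9.99% positive, and the medians were -0.44 for the members and -0.12 for all. No member was positive at an unadjusted p under 0.05 in limma, and none by adjusted p under voom. The positive count was 1 without Combination replicate 1, 1 with median-of-ratios scaling and 3 with quantile normalization. Again scaling moved the general level: of all called genes, 25.2% were positive as deposited, 44.3% with median-of-ratios scaling, 49.3% with quantile normalization and 45.1% with voom. The most negative members were SLC43A1 with -1.87 (SE 0.078, adjusted p = 8.2e-07), SLC1A5 with -1.58 (SE 0.094, adjusted p = 3.46e-06) and SLC7A5 with -1.54 (SE 0.10, adjusted p = 7.1e-06). SLC1A4, which rose with ENZ and fell with both agents, had -1.18 (SE 0.12, adjusted p = 7.8e-05), and PYCR1 had -1.06 (SE 0.081, adjusted p = 1.32e-05). SLC38A2 had -0.84 (SE 0.097, adjusted p = 0.000149) and DDIT4 -0.73 (SE 0.098, adjusted p = 0.000378; quantile normalization gave -0.44). The interaction of ATF4 was 0.01 (SE 0.080, adjusted p = 0.901), of CHAC1 0.06 (SE 0.20, adjusted p = 0.835), of DDIT3 0.23 (SE 0.11, adjusted p = 0.116) and of SLC38A9 0.17 (SE 0.12, adjusted p = 0.275). With quantile normalization ATF4 passed at 0.29 (adjusted p = 0.00787), DDIT3 at 0.47 (adjusted p = 0.00701) and SLC38A9 at 0.41 (adjusted p = 0.0189), and DDIT3 also passed with median-of-ratios scaling (adjusted p = 0.0218) and without Combination replicate 1 (adjusted p = 0.0487). In every alternative in which they were tested, 16 of the 23 stayed past the threshold, among them all those named here with a negative value. Of these, SLC1A4 and SLC7A2 averaged 4.88 and 4.52 FPKM and so were not tested with the filter at 5 FPKM.

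**Figure D4:**
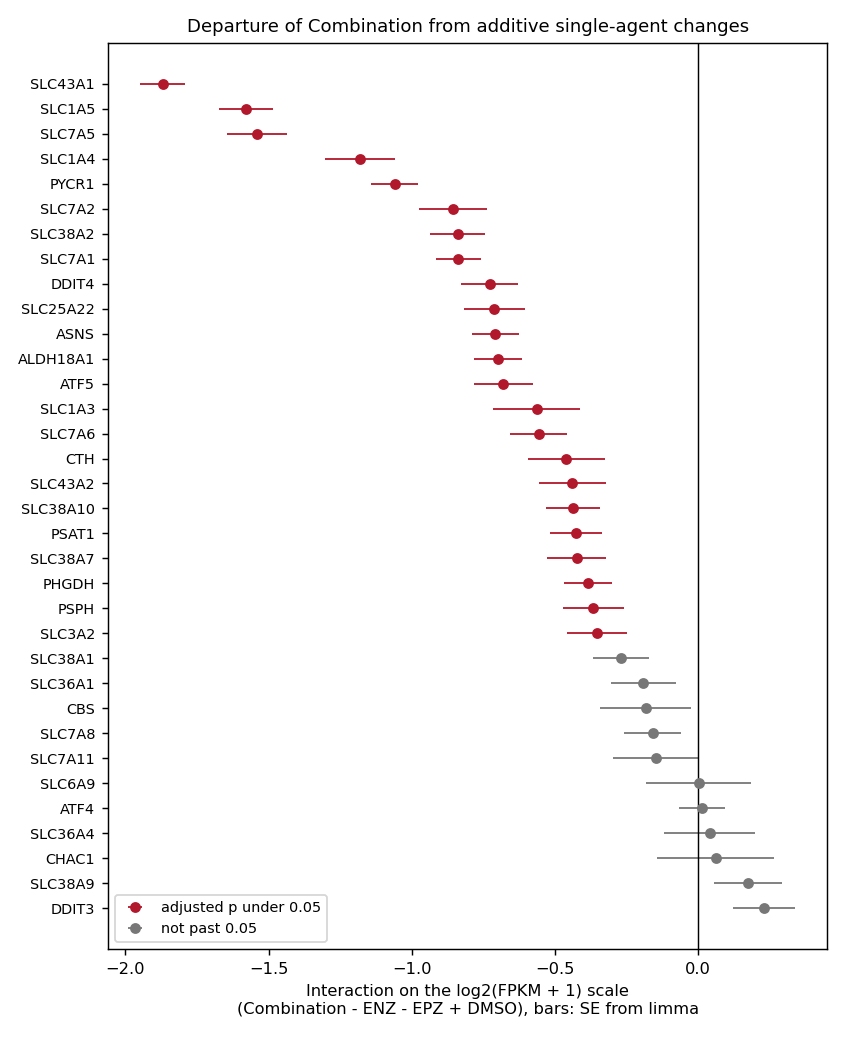
Points give the interaction (Combination change less the summed ENZ and EPZ changes, log2 scale) of each of the 34 tested member genes, with bars for its SE. Red points, 23 genes from SLC43A1 at -1.87 to SLC3A2 at -0.35, passed the adjusted p threshold of 0.05, and grey points did not.

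Outside the members, 4 further lists from the same pathways were read, beside all tested genes, of which 47.4% were lower and 33.3% higher in Combination, 28.8% and 27.9% in ENZ, and 32.4% and 23.4% in EPZ. Of 26 tested further genes that ATF4 is known to induce, 15 fell and 10 rose in Combination (median -0.47), 12 fell and 5 rose in ENZ (median -0.16), and 14 fell and 10 rose in EPZ (median -0.19). These are 57.7% lower and 38.5% higher in Combination, 46.2% and 19.2% in ENZ, and 53.8% and 38.5% in EPZ, and the Combination shares lay near those of all genes. In Combination EIF4EBP1, a repressor of cap-dependent translation, fell by 2.78 (SE 0.055, adjusted p = 2.37e-10). MTHFD2, a mitochondrial folate enzyme, fell by 2.71 (SE 0.072, adjusted p = 8.19e-10) and SHMT2, which turns serine into glycine, by 1.76 (SE 0.056, adjusted p = 2.42e-09). In ENZ EIF4EBP1 fell by 0.96 (SE 0.055), the stress cytokine gene GDF15 fell by 1.54 (SE 0.12) and the ATF4 feedback inhibitor TRIB3 by 0.80 (SE 0.063), each with adjusted p of 8.42e-06 or less. GDF15 rose in EPZ, by 1.36 (SE 0.12, adjusted p = 1.26e-05), and in Combination it fell by 0.81 (SE 0.12, adjusted p = 9.26e-05). In EPZ TRIB3 fell by 0.97 (SE 0.063) and MTHFD2 by 1.01 (SE 0.072), and the angiogenic factor VEGFA rose by 0.81 (SE 0.060), each with adjusted p of 5.87e-06 or less. Genes of this list went in both directions in each group, as the members did. The count that rose in ENZ was 3 without ENZ replicate 1 and 3 without DMSO replicate 1.

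Of 36 kinases of the integrated stress response and amino acid sensing genes, 19 fell and 15 rose in Combination (median -0.18), 13 fell and 11 rose in ENZ (median -0.08), and 8 fell and 9 rose in EPZ (median 0.04). With 52.8% lower and 41.7% higher in Combination, 36.1% and 30.6% in ENZ, and 22.2% and 25.0% in EPZ, this list did not stand far from all tested genes in any group. In Combination SEH1L, of the GATOR complex that activates mTORC1, fell by 1.74 (SE 0.066, adjusted p = 7.04e-09), the mTOR partner MLST8 by 1.35 (SE 0.063, adjusted p = 2.72e-08) and EIF2S1, the eIF2 subunit that the stress kinases phosphorylate, by 1.31 (SE 0.077, adjusted p = 1.43e-07). In ENZ SESN3, a leucine sensor relative, rose by 1.06 (SE 0.086, adjusted p = 1.03e-05), and MTOR fell by 0.61 (SE 0.066, adjusted p = 5.96e-05) and MLST8 by 0.54 (SE 0.063, adjusted p = 9.22e-05). In EPZ SESN3 rose by 0.87 (SE 0.086, adjusted p = 3.29e-05) and SESN1 by 0.69 (SE 0.084, adjusted p = 0.000115), and SEH1L fell by 0.62 (SE 0.066, adjusted p = 4.94e-05). The count that fell in Combination was 10 with quantile normalization and 12 with voom, and the count that rose in EPZ was 16 and 14. The count that rose in ENZ was 6 without DMSO replicate 1, 7 without DMSO replicate 2 and 5 with quantile normalization.

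Of 19 tested cystine and glutathione genes, 13 fell and 3 rose in Combination (median -0.98), 12 fell and 3 rose in ENZ (median -0.25), and 12 fell and 2 rose in EPZ (median -0.23). The shares were 68.4% lower and 15.8% higher in Combination, 63.2% and 15.8% in ENZ, and 63.2% and 10.5% in EPZ. GCLC, which catalyses the limiting step of glutathione synthesis, rose by 1.84 in Combination (SE 0.064, adjusted p = 4.01e-09) and by 1.16 in ENZ (SE 0.064, adjusted p = 8.33e-07). Glutathione reductase GSR fell by 1.71 in Combination (SE 0.056, adjusted p = 2.68e-09) and 0.86 in ENZ (SE 0.056, adjusted p = 2.24e-06), and GGCT fell by 2.10 in Combination (SE 0.068, adjusted p = 2.72e-09) and 0.66 in EPZ (SE 0.068, adjusted p = 4.11e-05). CSAD, of taurine synthesis, rose by 1.05 in ENZ (SE 0.10, adjusted p = 2.99e-05). In EPZ the lipid peroxidase GPX4 fell by 0.82 (SE 0.067, adjusted p = 1.02e-05) and the thioredoxin reductase TXNRD1 by 0.65 (SE 0.064, adjusted p = 3.19e-05). The count that fell in EPZ was 6 without EPZ replicate 1 and 7 without DMSO replicate 2, and the count that rose was 1 without EPZ replicate 1.

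Of 35 other amino acid transporter genes only 9 passed the expression filter. In Combination 5 fell and 2 rose (median -0.37), in ENZ 5 fell and 1 rose (median -0.15), and in EPZ 2 fell and 3 rose (median 0.02). Of these 9 genes, 55.6% were lower and 22.2% higher in Combination, 55.6% and 11.1% in ENZ, and 22.2% and 33.3% in EPZ, so 1 gene makes up 11.1%, and the Combination and EPZ shares were within about 1 gene of those of all genes. SLC25A15, the mitochondrial ornithine carrier, fell by 1.62 in Combination (SE 0.081, adjusted p = 4.29e-08), 0.40 in ENZ (SE 0.081, adjusted p = 0.00213) and 0.60 in EPZ (SE 0.081, adjusted p = 0.000201). SLC25A13, a mitochondrial aspartate and glutamate carrier, fell by 1.29 in Combination (SE 0.072, adjusted p = 8.81e-08) and 0.75 in ENZ (SE 0.072, adjusted p = 2.77e-05), and SLC16A10, a carrier of aromatic amino acids, by 1.32 in Combination (SE 0.086, adjusted p = 2.9e-07). In EPZ the lysosomal cationic carrier PQLC2 rose by 0.45 (SE 0.097, adjusted p = 0.00354) and SLC38A6 by 0.38 (SE 0.082, adjusted p = 0.00333). The count that fell in ENZ was 2 without ENZ replicate 2 or DMSO replicate 1 and 3 without DMSO replicate 2 or any 1 of the Combination or EPZ libraries. The count that rose in ENZ was 0 without ENZ replicate 2 or DMSO replicate 2, and the count that fell in EPZ was 1 without EPZ replicate 2.

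The 6 members under the expression filter were not tested. SLC1A1, the glutamate carrier EAAT3, averaged 0.657 FPKM over all libraries and lay just outside the filter. It held 85 and 60 fragments in Combination, 46 and 53 fragments in ENZ, 56 and 46 fragments in EPZ, and 21 and 21 fragments in DMSO, which correspond to 1.18 and 0.981 FPKM, 0.638 and 0.650 FPKM, 0.614 and 0.551 FPKM, and 0.364 and 0.277 FPKM. Every treated library lay above both DMSO libraries. SLC38A4, a SNAT carrier best known from liver, held 2 and 1 fragments in Combination, 0 fragments in both ENZ libraries, 63 and 56 fragments in EPZ, and 21 and 19 fragments in DMSO. Both groups given ENZ were thus at or near 0 for SLC38A4, and EPZ was above DMSO. SLC43A3, a nucleobase carrier of the LAT3 family, SLC7A7, SLC1A2 and SLC38A5 held at most 12 fragments in any library, too few to compare.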

How the data were processed

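The authors deposited 1 table of FPKM values for 26475 rows and 8 libraries, of which 26443 rows carry values. Per the submitters' processing notes, STAR and the hg38 build were used. How fragments were counted, on which annotation and whether by strand, is not stated in the labels or the file. Per the labels' protocols, libraries were made from total RNA with a NEBNext Ultra kit. Each column carries the short name of 1 sample in its description, and the sample titles give the groups.

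Values were used as log2(FPKM + 1) for genes averaging 1 FPKM or more, so fold changes understate the change of low genes. A model of all 4 groups was fitted to all 11874 such genes by limma 3.58.1 (R 4.3.3), whose two-sided moderated test used a variance trend (5.47 prior and 4 residual degrees of freedom) and Benjamini-Hochberg adjustment over all tested genes per comparison, at 0.05. The fit was tested on simulated data in which few genes changed, in ENZ only, and no library was shifted as a whole. The libraries here differ in both respects, so that test does not cover the scaling of Combination. Tables and figures used Python 3.11.15, pandas 2.3.3, numpy 2.4.6 and matplotlib 3.10.9.

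FPKM moved in steps of 1 fragment. Whole fragments were recovered for 100% of 18619 rows with at least 3 values above 0, all tested rows included, within 0.01 fragments, and gave each library's depth. Voom in limma on these fragments was added as an alternative after the data were seen. Across tested genes it called 5470 higher and 4030 lower in Combination against DMSO. The other alternatives were a pseudocount of 0.1, no filter, a 5 FPKM filter, scaling by median-of-ratios, normalization by quantiles, only the compared groups, a replicate block, and each library left out in turn. Replicates with the same number deviated together little, with correlations of -0.0153 to 0.109 between groups. Low correlations cannot exclude a shared culture or preparation, so the numbers are not known to pair the libraries.

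The members and lists were chosen with earlier results of these data known. Full values are given for 12 genes chosen by their role in transport and stress, for up to 3 genes of each role group with the smallest p in each comparison with DMSO, and for the interaction for genes past 0.05. Up to 3 genes of each further list and comparison follow the same ranking. SLC43A2 under voom and quantile normalization and the genes under the filter were named after their values were seen. Promoter sequences are from RefSeq (GRCh38.p14), and gene coordinates and exon overlaps from GENCODE 29. Overlaps with other genes may differ in the authors' annotation.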

Additional observations from a re-analysis of the deposited data

Results flagged for a closer look

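By the interaction in limma (adjusted p under 0.05), 23 of the 34 tested genes departed from additivity, against 39.6% of all tested genes. The doses in Combination are not given. Only if they equal the single-agent doses is this a difference in the effect of EPZ6438 with and without ENZ. Read so, the effect of EPZ6438 in each of these 23 was more negative, or less positive, in cells that also received ENZ. The value given is that effect with ENZ minus that effect without it, on the log2(FPKM + 1) scale.

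Among the System L carriers the difference was -1.87 for SLC43A1, -1.54 for SLC7A5, -0.44 for SLC43A2 and -0.353 for SLC3A2. Among the cationic transporters it was -0.855 for SLC7A2, -0.838 for SLC7A1 and -0.556 for SLC7A6. Among the glutamate, cystine and ASC transporters it was -1.58 for SLC1A5, -1.18 for SLC1A4 and -0.564 for SLC1A3. Of the other transporters, SLC38A2 had -0.839, SLC25A22 had -0.711, SLC38A10 had -0.437 and SLC38A7 had -0.424. The stress genes with a difference were DDIT4, at -0.728, and ATF5, at -0.68. Of the synthesis enzymes, PYCR1 had -1.06, ASNS -0.708, ALDH18A1 -0.699, CTH -0.46, PSAT1 -0.425, PHGDH -0.385 and PSPH -0.365.

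The differences of SLC43A2, SLC3A2, SLC1A3, SLC38A10, PHGDH, PSPH and CTH did not pass under at least 1 alternative. Without Combination replicate 1 that of SLC43A2 had adjusted p = 0.0571 and that of SLC3A2 adjusted p = 0.0905. Without DMSO replicate 2 the adjusted p was 0.0573 for SLC43A2, 0.0818 for SLC3A2 and 0.085 for CTH, and without DMSO replicate 1 it was 0.0683 for SLC1A3 and 0.0704 for PSPH. Without EPZ replicate 2 it was 0.0617 for SLC3A2, 0.0683 for SLC1A3, 0.0963 for PSPH and 0.0873 for CTH, and without EPZ replicate 1 it was 0.0697 for SLC3A2. With quantile normalization it was 0.211 for SLC3A2, 0.412 for SLC38A10 and 0.369 for PHGDH. With median-of-ratios scaling it was 0.109 for SLC3A2, 0.0984 for PSPH and 0.0535 for CTH. With voom it was 0.0717 for SLC3A2, 0.138 for PSPH and 0.0947 for CTH, and with no filter 0.062 for SLC3A2 and 0.0619 for CTH. Without Combination replicate 2 it was 0.0723 for PSPH and 0.067 for CTH.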

How the results depend on the processing

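Several counts of calls moved with scaling, filters or single libraries. Members called higher numbered 10 in ENZ under voom (6 as deposited), 9 in Combination against DMSO under median-of-ratios scaling and 10 under voom (5), 6, 5 and 7 against EPZ under median-of-ratios scaling, quantile normalization and voom (3), and 1 and 3 for the interaction under the first and second of these (0). Leaving out 1 library gave 5 to 8 members higher and 8 to 13 lower in EPZ, and 0 to 1 positive for the interaction.

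Against DMSO, the further ATF4-induced genes higher in ENZ numbered 2 with the filter at 5 FPKM (5) and 3 to 5 with 1 library left out. Stress kinase and sensing genes higher in ENZ numbered 7 with no filter and 5 with quantile normalization (11), and 6 to 11 with 1 library left out. Those higher in EPZ numbered 16 with quantile normalization and 14 with voom (9), and those lower in Combination 10 and 12 (19). Cystine and glutathione genes lower in EPZ numbered 5 with quantile normalization (12) and 6 to 12 with 1 library left out, where 1 to 2 were higher. Those higher in Combination numbered 5 with median-of-ratios scaling, 5 with quantile normalization and 6 with voom (3). Of the other transporters, 3 with no filter, 0 with the filter at 5 FPKM, 0 with quantile normalization and 2 with voom were higher in ENZ (1), and 0 to 1 with 1 library left out. Those lower in ENZ numbered 3 at 5 FPKM, 3 with quantile normalization, 2 with only the compared groups and 2 with voom (5), and 2 to 4 with 1 library left out. At 5 FPKM 1 was higher and 1 lower in EPZ and 1 higher in Combination, 8 were higher in Combination with no filter, and 1 to 3 were lower in EPZ with 1 library left out.

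Of 204 member values, 34 had the other sign under at least 1 alternative. In 8 of these the value passed the threshold as deposited or under that alternative: SLC7A1 in ENZ (0.0583), SLC43A1 (0.153) and ASNS (0.000995) in EPZ, SLC7A8 (0.157) and SLC38A2 (0.151) in Combination, SLC7A8 against ENZ (0.214) and SLC3A2 against EPZ (0.0559), all with quantile normalization, and SLC43A2 (0.239) in Combination with voom, where SLC7A8 (0.0813) also changed sign. The cause was not tested. With the replicate block, although the numbers are not known to pair the libraries, ASNS in EPZ (adjusted p = 0.0504) and SLC36A4 against EPZ (adjusted p = 0.0503) no longer passed. SLC7A8 in ENZ did (adjusted p = 0.0483), and no other member's call changed. Depth limits genes under 1 FPKM, which rest on few fragments.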
